A study of Gallus gallus with 4 samples.

Results

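The genes described here encode the proteasome, the protease that breaks down proteins tagged with ubiquitin, and the ubiquitin-conjugating (E2) enzymes that help to attach the tag. They were measured in the liver of coloured broiler chickens. Members were the genes whose symbol starts with PSMA, PSMB, PSMC, PSMD, PSME or UBE2 and whose array probes carry a RefSeq accession. That gave 42 genes of the 4872 named genes measured, 26 of the proteasome and 16 UBE2 genes, on 103 of 43603 probes. Each gene was read through its brightest probe. Other genes of these families were not analysed here.

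The study used 4 one-colour Agilent arrays, 2 for group 1 and 2 for group 2, all from birds of 35 days. Group 1 is labelled high and group 2 low. The same word describes feed efficiency in one label and residual feed intake (feed eaten in excess of that predicted from growth and size) in another, although a bird high in one would be low in the other. Which group was the more efficient is thus unresolved in the labels. The study's design takes the low group as the control, so differences are group 1 minus group 2. Birds of both groups lived in single cages with free feed and water, on starter and then finisher ration. RNA of several birds was pooled per group and each pool split in duplicate, per the study's design, so p-values measure only the spread between these arrays. All 4 arrays sat on 1 slide, and position on it cannot be told apart from group.

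The labels name only females for both group 1 arrays and for group 2 replicate 1, and 1 male and 1 female for group 2 replicate 2. On the array labelled group 2 replicate 1 the 8 probes of the W-linked gene HINTW had a median log2 level of -3.85, against 6.16, 5.98 and 5.87 on group 1 replicates 1 and 2 and group 2 replicate 2. Its signal thus goes against its label. Group 2 replicate 2 is labelled with 1 male, yet its 34 kept W-linked probes had a median of 0.44, against 0.39 and 0.49 in group 1. Portions of 1 pool would share the HINTW signal, and the arrays of group 2 did not, so their spread is not technical alone. Values without group 2 replicate 1 are given for several genes and sets below. The arrays of group 2 also differed more from each other (SD of the log2 difference 0.79 over kept probes) than those of group 1 (0.42). Liver markers were present on all arrays: 11 of 11 measured hepatocyte genes were well above background throughout, and 0 were called by limma. Albumin (ALB) differed by 0.29 (limma adjusted p = 0.567). VTN, the 1 gene lower at an unadjusted limma p under 0.05, differed by -1.41 (limma adjusted p = 0.0884). Of the 11 genes 7 lay above 0, but 1 did so under median scaling. Without group 2 replicate 1 the count was 8, and without group 2 replicate 2 it was 3. Erythroid, lymphocyte, endothelial and stellate, and intestinal marker lists moved with the groups. Among the genes well above background on all 4 arrays, 2 of 8, 2 of 11, 7 of 10 and 3 of 6 were called higher in group 1 and 0 lower. Of all 4628 such genes 403 were called in either direction. The 7 called in the endothelial and stellate list were collagen genes, DCN and LUM. Its endothelial genes CDH5 (0.53, limma adjusted p = 0.316) and KDR (0.26, limma adjusted p = 0.458) were not called. At an unadjusted limma p under 0.05, 1 erythroid and 1 lymphocyte gene were lower. These were HBZ (-0.81, limma adjusted p = 0.123) and SH2D6 of the lymphocyte list (-1.09, limma adjusted p = 0.0543). The 8 erythroid genes also include ALAS1 (-0.058, limma adjusted p = 0.868), matched by name in place of ALAS2 and not specific to red cells. The summed linear levels of each list, in units of the array's 75th percentile, were 378 and 312 in group 1 against 52.5 and 149 in group 2 for erythroid genes. For lymphocyte genes they were 217 and 197 in group 1 against 98.8 and 77.7 in group 2. Most of the lymphocyte sum came from CD74, with log2 levels of 7.46 and 7.27 in group 1 against 6.25 and 5.71 in group 2. CD74 and PTPRC were the 2 called lymphocyte genes, and CD3E came nearest of the others (1.02, limma adjusted p = 0.0515). Endothelial and stellate genes gave 37.9 and 34.1 in group 1 against 11.7 and 9.25 in group 2, and intestinal genes 455 and 364 in group 1 against 360 and 353 in group 2. Nearly all of the intestinal sum came from APOA4 and ANPEP, which were not called. The other 10 intestinal genes summed to 12.8 and 12.2 in group 1 against 1.56 and 1.36 in group 2. The intestinal genes RBP2, FABP2, CDX2, CDH17 and CLDN10, the erythroid gene TFRC and the lymphocyte gene CD4 were not well above background on either group 2 array. RBP2 was at least 199.5-fold and FABP2 at least 95.7-fold higher in group 1, as bounds from the lowest signal well above background. Both genes were kept through group 1 alone, so no p-value is given for them. The part of these cells in the results below was not tested, and a change in the number of cells of a type cannot be told apart from a change in RNA per cell.

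Ubiquitin is passed from an activating (E1) enzyme to an E2, which works with a ligase (E3) to place it on a target protein. Chains of ubiquitin then mark the protein for the proteasome. The core particle is a barrel of alpha rings (PSMA) around beta rings (PSMB) whose inner faces carry the cutting sites. A regulatory cap with a ring of ATPases (PSMC) and further subunits (PSMD) recognises, strips and unfolds the tagged protein, and activators of the PSME class can take the place of the cap. In liver this system clears damaged, regulatory and endoplasmic reticulum proteins. The roles named below are those established in yeast and mammals.

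None of the 42 genes passed the test between the groups, 0 higher and 0 lower in group 1 (limma, Benjamini-Hochberg over 33866 probes, adjusted p under 0.05). Over all named genes 9.67% were called, 5.75% higher and 3.92% lower. Of the called genes 59.4% were higher in group 1, and 40.2% when arrays were scaled to their medians, which moved the median of all genes to -0.079. The count of 0 rests on narrow margins: UBE2V2 was called lower under 4 other ways of scaling or filtering (limma adjusted p from 0.0305 to 0.0493), and PSME4 was called higher under 1 of them (0.0451). At an unadjusted p under 0.05, 4 members were higher (9.52%, against 19.1% of all genes) and 2 lower (4.76%, against 12.5%). In both directions these were 14.3% of the members, against 31.6% of all genes. All 42 genes were well above background on all 4 arrays, so no member entered through 1 group alone. The arrays of the groups did not overlap for 29 genes, 19 with group 1 above and 10 with group 1 below, or 69% of the members against 68.1% of all genes (40.3% above and 27.8% below). The members' log2 differences had a median of -0.015 and an SD of 0.44, against a median of 0.14 and an SD of 0.89 over all genes. Without group 2 replicate 1 the members' median was 0.11, with 27 of 42 above 0 in place of 20. Over all genes 2849 of 4872 lay above 0, and 2789 of 4870 without that array. A difference of at least 2-fold in either direction was seen for 2 members, or 4.76%, against 18.1% of all genes. For 28 of the 42 genes the 95% interval of the difference lay wholly within a 2-fold change either way, as it did for 39.1% of all genes. The exact permutation test of 2 arrays against 2 cannot give a p below 0.333.

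**Figure D1:**
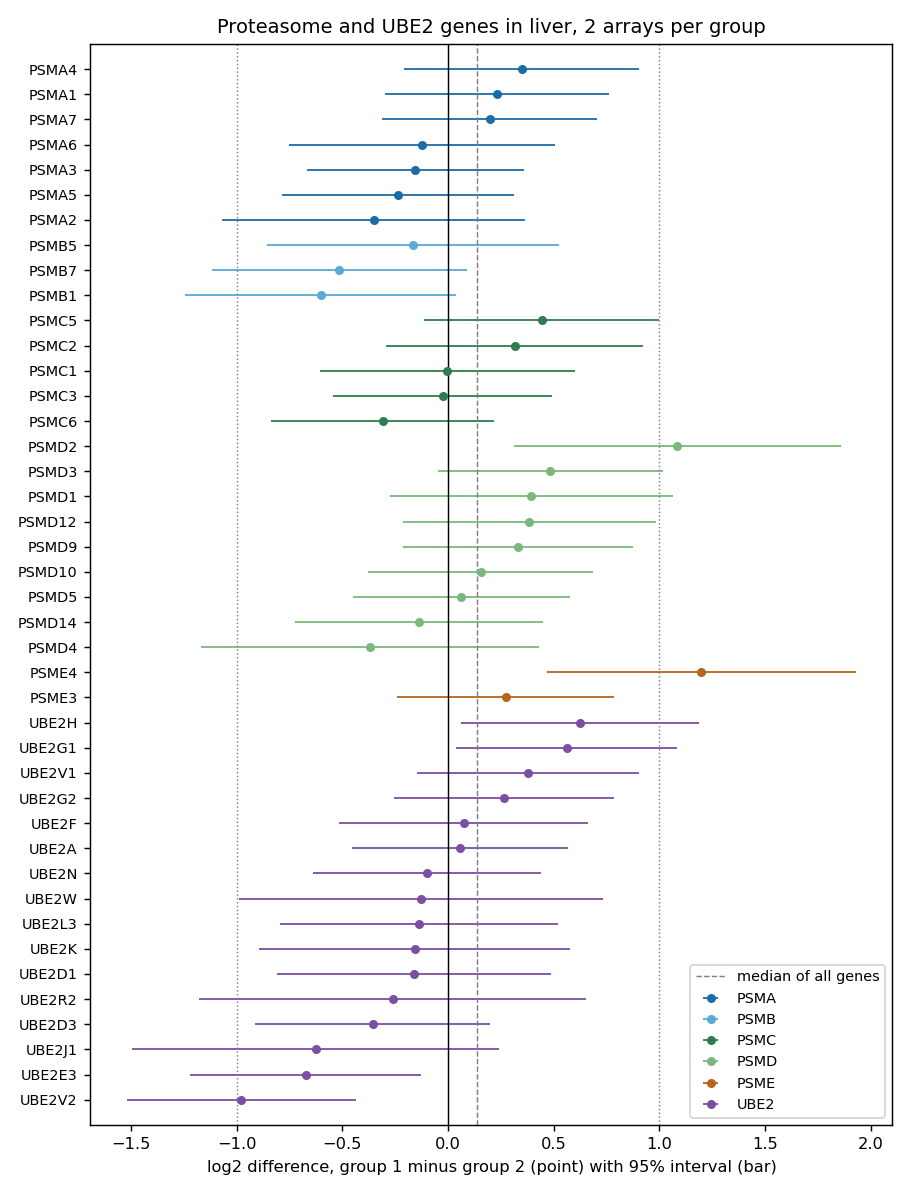
Log2 difference of each of the 42 genes, group 1 minus group 2 (point), with its 95% interval from the limma fit (bar), by class; dotted lines mark a 2-fold change and the dashed line the median of all genes. PSMD2 and PSME4 lie beyond the dotted line on the right with 1.08 and 1.20, and UBE2V2 lies lowest with -0.98.

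The alpha ring forms the gated entrance of the core particle, and its 7 genes were all measured. Their differences ran from -0.35 to 0.35 with a median of -0.12. PSMA4 had the smallest adjusted p of the class, with log2 levels of 4.23 and 3.97 on the group 1 arrays and 3.72 and 3.78 on the group 2 arrays, where 0 is the array's 75th percentile. Both group 1 arrays lay above both group 2 arrays, but the difference of 0.35 ± 0.21 (SE, n = 2 arrays per group) did not pass the limma test (adjusted p = 0.296). PSMA1 (0.23) and PSMA7 (0.20, or -0.017 under median scaling) also had group 1 above group 2. PSMA2 (-0.35), PSMA5 (-0.24) and PSMA3 (-0.16) had group 1 below, and the arrays overlapped for PSMA6 (-0.12). With subunits on both sides of 0, the ring as a whole had no common direction, and without group 2 replicate 1 its median was 0.086.

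The beta ring was represented by PSMB5, which carries the chymotrypsin-like site, PSMB7, which carries the trypsin-like site, and PSMB1, which cuts nothing. All 3 differences were below 0. PSMB1 had log2 levels of 3.06 and 3.42 in group 1 against 3.98 and 3.71 in group 2, a difference of -0.60 ± 0.24 (limma adjusted p = 0.156). PSMB7 read 3.15 and 3.32 in group 1 against 3.92 and 3.58 in group 2, a difference of -0.52 ± 0.23 (limma adjusted p = 0.185). Neither pair of groups overlapped, with group 1 below as for 27.8% of all genes, and neither gene passed the test. PSMB5 read 3.76 and 3.89 in group 1 against 3.73 and 4.25 in group 2, so that the arrays overlapped and the difference was -0.17, or 0.098 without group 2 replicate 2.

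The ATPase ring of the cap unfolds substrates and threads them into the core. Its 5 measured genes had a median difference of -0.0045, with a range from -0.31 to 0.44. PSMC5 came nearest to the test, with 4.45 and 4.38 in group 1 against 3.85 and 4.10 in group 2 and a difference of 0.44 ± 0.21 (limma adjusted p = 0.208). PSMC2 (0.31) also had group 1 above, PSMC6 (-0.31) had group 1 below, and PSMC1 (-0.0045) and PSMC3 (-0.026) were near 0. For all 5 ATPases the 95% interval lay within a 2-fold change, for PSMC5 only just, with an upper limit of 0.9995.

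Among the 9 PSMD genes, 7 had both group 1 arrays above both group 2 arrays, against 40.3% of all genes, and the median difference was 0.33. That median was 0.12 under median scaling (5 of 9 above 0, against 2179 of 4872 genes), 0.15 with probes averaged and 0.14 without group 2 replicate 2. PSMD2, a large scaffold subunit to which ubiquitin shuttles dock, had the largest difference of the class. Its log2 levels were 3.23 and 3.33 in group 1 against 2.53 and 1.86 in group 2. The group 1 arrays were close together and clear of group 2, whose arrays lay 0.66 apart, and the difference was 1.08 ± 0.29 (95% interval 0.31 to 1.86, limma adjusted p = 0.0787). The companion scaffold PSMD1 read 5.14 and 5.09 in group 1 against 4.97 and 4.47 in group 2 (0.39 ± 0.25, limma adjusted p = 0.323). PSMD3 (0.48, or -0.075 as the mean of its probes) and PSMD12 (0.39), structural subunits of the cap's lid, lay on the same side. So did PSMD9 (0.33), PSMD10 (0.15) and PSMD5 (0.063), chaperones that help to assemble the cap and are absent from the finished particle, although under median scaling PSMD10 and PSMD5 lay at -0.060 and -0.15. Both remaining genes overlapped between groups: PSMD14 (-0.14), the enzyme that cuts ubiquitin off the substrate, and PSMD4 (-0.37), a receptor for ubiquitin chains. Without group 2 replicate 1, the difference of PSMD2 was 1.42. With all probes of a gene averaged, its difference was 0.23 (limma adjusted p = 0.582).

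Of the activators, PSME4 had the largest difference of all 42 genes. It encodes a large single-chain cap linked in mammals to histone breakdown in sperm cells and to DNA repair. Its log2 levels were -0.44 and -0.38 in group 1 against -1.31 and -1.91 in group 2, with no overlap. The difference of 1.20 ± 0.28, a 2.30-fold higher signal in group 1 (95% interval of the log2 difference 0.47 to 1.93), did not pass the test (limma adjusted p = 0.0607). Its other probe also had group 1 above, with 0.53. The difference of PSME4 was 1.50 without group 2 replicate 1 and 0.897 without group 2 replicate 2. The nuclear activator PSME3 read 3.24 and 3.20 in group 1 against 2.99 and 2.90 in group 2, a difference of 0.27 ± 0.20 (limma adjusted p = 0.366), or -0.082 as the mean of its probes.

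**Figure D2:**
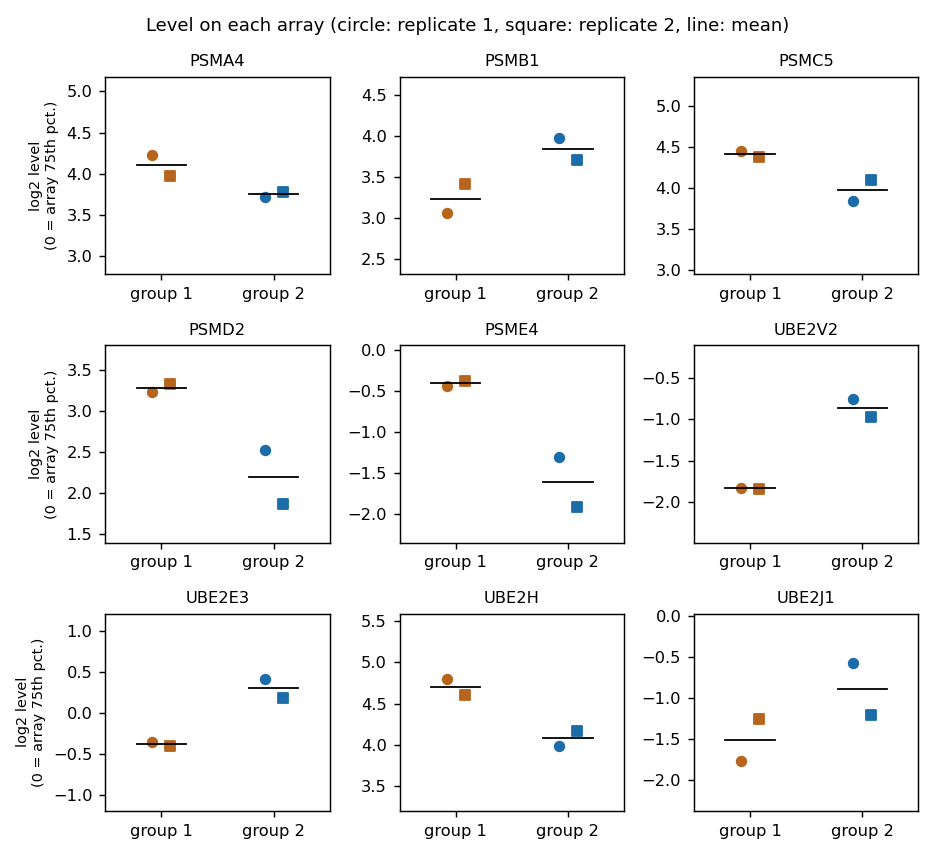
Log2 level on each array (vertical axis, 0 is the array's 75th percentile) for the gene of smallest adjusted p in each class and for UBE2E3, UBE2H and UBE2J1, with group 1 left and group 2 right; circles are replicate 1, squares replicate 2 and lines group means. The group 2 arrays of PSMD2 and PSME4 lie 0.66 and 0.60 apart, while the group 1 arrays lie within 0.094 and 0.056.

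The 16 UBE2 genes had a median difference of -0.13 (0.063 without group 2 replicate 1) and ranged from -0.98 to 0.62. UBE2V2 came nearest to the threshold of all members (limma adjusted p = 0.0521). It encodes an E2-like protein without a catalytic cysteine that pairs with UBE2N to build ubiquitin chains that signal in DNA repair and immunity instead of leading to breakdown. Its log2 levels were -1.84 and -1.85 in group 1 against -0.75 and -0.97 in group 2, a difference of -0.98 ± 0.21 (95% interval -1.52 to -0.44). Its 3 other probes differed by -0.40, -0.032 and 0.19, and with all kept probes averaged the difference was -0.30 (limma adjusted p = 0.333). The difference of UBE2V2 was -0.87 without group 2 replicate 1 and -1.09 without group 2 replicate 2.

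UBE2V1, the other cofactor of UBE2N, lay on the opposite side, with 2.70 and 2.56 in group 1 against 2.22 and 2.29 in group 2 (0.38 ± 0.20, limma adjusted p = 0.244). With all probes averaged the difference of UBE2V1 was -0.090, on the other side of 0. UBE2N itself read 2.05 and 1.89 in group 1 against 2.14 and 2.00 in group 2 (-0.10, limma adjusted p = 0.748).

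UBE2E3, a nuclear and cytosolic E2, was the second lowest, with -0.35 and -0.40 in group 1 against 0.42 and 0.19 in group 2. The groups did not overlap, and the difference of -0.67 ± 0.21 had a limma adjusted p of 0.0986. Its other probes, at -0.64 and -0.59, lay close to this value. UBE2H, which works with the ligase complex GID and is abundant in maturing red cells of mammals, had the highest value of the family. It read 4.80 and 4.60 in group 1 against 3.98 and 4.17 in group 2 (0.62 ± 0.21, limma adjusted p = 0.118). On the same arrays the red cell anion exchanger SLC4A1 read 3.11 and 3.02 in group 1 against 0.40 and 1.50 in group 2 (2.11, limma adjusted p = 0.0463), and its part in the UBE2H value was not tested.

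On their brightest probes the E2 enzymes of protein breakdown at the endoplasmic reticulum did not share a direction. UBE2G1, which extends the chains that lead to breakdown, read 3.12 and 3.04 in group 1 against 2.58 and 2.46 in group 2 (0.56 ± 0.20, limma adjusted p = 0.125). UBE2G2, its relative at the membrane, differed by 0.27 with no overlap. As means over their probes both lay below 0, at -0.022 and -0.23, on the side of UBE2J1. UBE2J1, which is anchored in that membrane, read -1.77 and -1.25 in group 1 against -0.57 and -1.20 in group 2 (-0.63 ± 0.33, limma adjusted p = 0.242). Its arrays lay 0.51 apart in group 1 and 0.63 apart in group 2.

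The broad-range enzymes that serve many ligases were UBE2D3 (-0.36, no overlap) and UBE2D1 (-0.16, overlap). UBE2K (-0.16), which builds breakdown chains, UBE2L3 (-0.14), which serves HECT and RBR ligases, and UBE2W (-0.13), which tags the start of proteins, overlapped too. UBE2F (0.073), which conjugates the ubiquitin-like NEDD8, overlapped, and UBE2A (0.056), an enzyme of DNA damage tolerance, had group 1 above by less than its SE of 0.19. Under median scaling both lay below 0, at -0.14 and -0.16. UBE2R2, a partner of cullin ligases, was the 1 member on chromosome Z, and the gene table lists a related gene, UBE2R2L, on W. UBE2R2 read -0.025 and -0.14 in group 1 against 0.61 and -0.26 in group 2, so the array labelled group 2 replicate 1 stood 0.87 above its partner, the widest gap between group 2 arrays among the members. Over 416 Z-linked probes that array lay 0.50 above the mean of the other arrays by the median. The difference of UBE2R2 was -0.26 with this array (limma adjusted p = 0.616) and 0.17 without it. The other 41 members lie on 18 further chromosomes in the table's assembly, GRCg7b.

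The arrays of one group can differ as much as the groups. Within group 2, replicate 1 read higher than replicate 2 for 32 of 42 members, by a median of 0.19, against 46.6% of all genes and a median of -0.037. Among proteasome genes this held for 21 of 26, and among the 11 PSMC and PSMD subunits of the finished cap for 10. The 42 measured cytosolic ribosomal protein genes, another large set of subunits, ran the other way: 3 of 42 were higher on replicate 1, with a median of -0.31. Within group 1 the members' median gap was 0.056. UBE2W read 1.66 and 2.44 on replicates 1 and 2 of group 2, a gap of -0.78 that was the widest in that direction. PSMD4, PSMB1 and UBE2J1 had the widest gaps of the proteasome and UBE2 genes in group 1, with -0.67, -0.36 and -0.51.

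**Figure D3:**
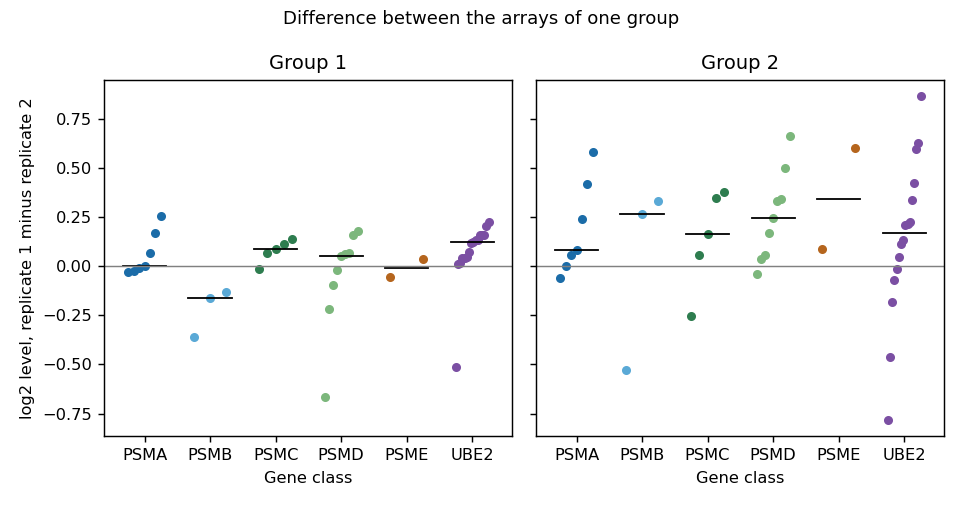
Log2 level on replicate 1 minus that on replicate 2 for each gene, by class (horizontal axis), in group 1 (left) and group 2 (right); the short lines are class medians. In group 2 the medians of all 6 classes lie above 0, from 0.083 for PSMA to 0.34 for PSME, while in group 1 they run from -0.16 to 0.12.

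Ribosomal protein genes also spread less between the groups. Their log2 differences had an SD of 0.21 over 42 genes and a median of 0.23, and 0 were called (limma; 0 also at an unadjusted p under 0.05). That median was 0.011 under median scaling, 0.063 without group 2 replicate 1 and 0.39 without group 2 replicate 2. The SD over the 26 proteasome genes was 0.43. Core particle genes had a median difference of -0.16, with 7 of 10 below 0, against 2023 of 4872 genes. It was -0.37 under median scaling, -0.30 with probes averaged, -0.26 without group 2 replicate 2 and -0.087 without group 2 replicate 1. The 11 PSMC and PSMD subunits of the finished cap, without PSMD5, PSMD9 and PSMD10, had a median of 0.31. Of these 11, 6 lay above 0, against 2849 of 4872 genes. The cap subunits ADRM1 and SHFM1 are not among the 11. The median of the 11 was 0.10 under median scaling, 0.13 without group 2 replicate 2 and -0.075 with probes averaged. The direction of these cap genes thus depends on the probes used. On the single arrays the median log2 level of the core genes was 3.78 and 3.86 in group 1 against 3.95 and 3.83 in group 2. That of the finished cap's genes was 3.87 and 3.76 in group 1 against 3.85 and 3.81 in group 2. These medians are descriptions of the sets, and the difference between core and cap was not tested.

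Different probes of one gene did not always give the same direction. Of 33 members with several kept probes, 24 (72.7%) had all probes on one side of 0, against 61.7% of 3157 genes with several probes. The median span between the highest and lowest difference within a gene was 0.41, against 0.57 over all such genes. The span exceeded 1 for 6 members: PSMD3, PSMD2, UBE2N, UBE2G1, UBE2V2 and UBE2G2. PSMD3 ran from -1.33 to 0.48 and PSMD2 from -0.72 to 1.08 over 4 and 5 probes. UBE2N ran from -0.26 to 1.33, the highest from a probe with 1 array missing. For UBE2G1 the probes gave 0.56, 0.52, -0.48 and -0.68, and for UBE2G2 they gave 0.27, 0.20, -0.61 and -0.78. Of the 103 probes 1 was called, a dimmer probe of PSMD1 with 3.76 and 3.62 in group 1 against 2.65 and 2.75 in group 2 (0.99 ± 0.20, limma adjusted p = 0.0496). That is 0.971% of the members' probes, against 11.2% of all probes. The brightest probe of PSMD1, on the same side at 0.39, was not called.

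**Figure D4:**
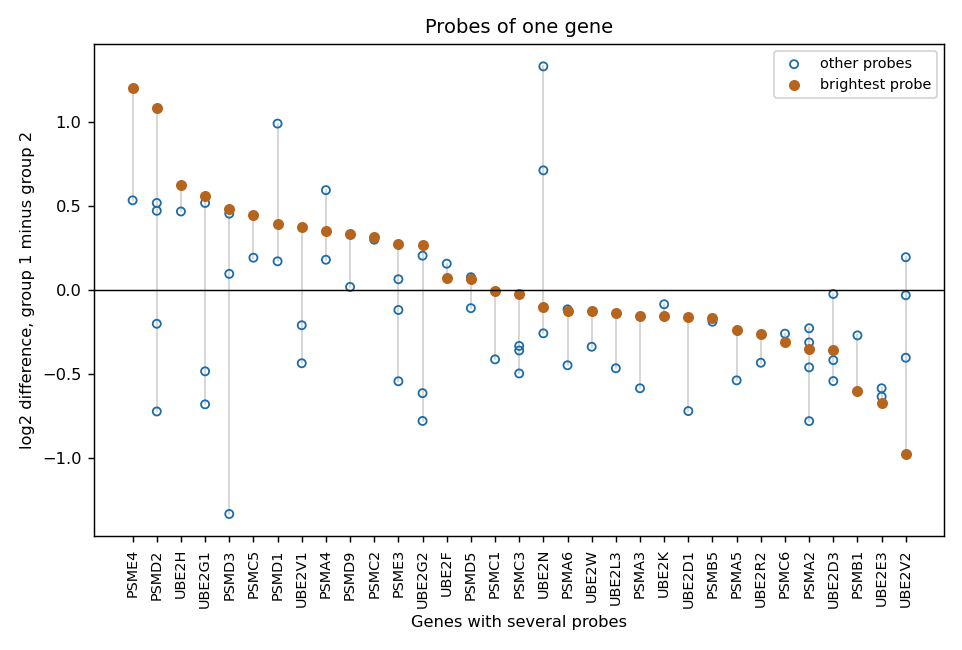
Log2 difference, group 1 minus group 2 (vertical axis), of every kept probe of the 33 members with several probes (horizontal axis), ordered by the brightest probe (filled); open circles are the other probes. PSMD3, PSMD2, UBE2N, UBE2G1, UBE2V2 and UBE2G2 have probes on both sides of 0 that span more than 1 unit.

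Other genes of the pathway were read from 9 lists covering 73 measured genes. Of the 73 genes 4 were called, or 5.48%, against 9.67% of all genes. In 6 of the 9 lists, with 48 genes, 0 were called by limma. At an unadjusted p under 0.05 these lists had 5 genes higher and 1 lower, or 12.5%, against 31.6% of all genes. Of 4 E1 enzymes ATG7, which activates ubiquitin-like proteins of autophagy, came nearest at -0.88 (limma adjusted p = 0.0556). ATG7 was called lower under median scaling (-1.10, limma adjusted p = 0.0423). The same held with the normexp background correction followed by quantile normalization (-0.82, limma adjusted p = 0.0333). All 6 measured genes in the list of proteasome assembly factors and inhibitors lay above 0, with a median of 0.31. Of these, ADRM1 (0.33) and SHFM1 (0.28) are subunits of the cap and not assembly factors or inhibitors. Under median scaling 5 of the 6 lay above 0, as did 5 of 6 with probes averaged (median 0.23). The chaperone PSMG3 gave 0.51 (limma adjusted p = 0.195), and 0.13 and 0.054 on its other probes. PAAF1, which holds back ATPase subunits during assembly, read -0.81 and 1.16 in group 1 against a mean of -0.93 in group 2. The other probe of PAAF1 lay on the opposite side, at -0.65. Of 17 deubiquitinating enzymes 11 lay above 0, and USP47 came nearest to the test (0.54, limma adjusted p = 0.131). Their median was 0.28, and 9 of 17 lay above 0 under median scaling. Over all genes 2849 of 4872 lay above 0, and 2179 of 4872 under median scaling. In 14 cullin-RING and APC/C subunits FZR1 came nearest (0.62, limma adjusted p = 0.108), with a median of -0.054.

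The transcription factor NFE2L1 raises proteasome genes when proteasomes are blocked, and it forms pairs with small MAF proteins. NFE2L1 read 3.17 and 3.12 in group 1 against 3.18 and 3.54 in group 2 (-0.22, limma adjusted p = 0.527). Its other kept probes lay on both sides of 0, at 0.55, 0.069 and -0.67. The relative NFE2L2 differed by -0.10 (limma adjusted p = 0.77). The small MAF genes MAFF (0.96, limma adjusted p = 0.0543), MAFK (0.86, limma adjusted p = 0.118) and MAFG (0.55, limma adjusted p = 0.124) all had group 1 above group 2 without overlap. So did 40.3% of all genes, and none of these MAF genes passed in the main fit. With the normexp correction and quantile normalization MAFF was called higher (0.89, limma adjusted p = 0.0323). The other kept probe of MAFG gave 0.0024. NGLY1, which strips sugars from proteins leaving the endoplasmic reticulum and is needed to activate NFE2L1, was called lower in group 1. It read 0.75 and 0.92 in group 1 against 2.08 and 2.06 in group 2 (-1.24 ± 0.20, limma adjusted p = 0.0359). Its 3 other probes gave -0.90 (limma adjusted p = 0.0628), -0.070 and 0.22, and none was called. The call was lost without the filter on dim probes (limma adjusted p = 0.0609), with the replicate number as a block (0.0623) and with probes averaged (-0.50, 0.15). It was the 1 called gene of 4 shuttle and extraction factors.

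UFM1, a ubiquitin-like protein attached to ribosomes at the endoplasmic reticulum, had the largest change in the pathway lists. It read -1.16 and -1.08 in group 1 against 1.58 and 1.13 in group 2 on its single kept probe, and fell by 2.47 ± 0.25 on the log2 scale (limma adjusted p = 0.0215). It was the 1 called of 6 ubiquitin-like modifiers. MARCH5, a ligase of the mitochondrial outer membrane, read -0.017 and -0.066 in group 1 against 1.50 and 1.76 in group 2 (-1.67 ± 0.21, limma adjusted p = 0.0271). A second MARCH5 probe was called too (-1.98, limma adjusted p = 0.0227), and the third gave 0.054. The very large HECT ligase HERC2 was called higher on its brightest probe (1.21 ± 0.23, limma adjusted p = 0.0443), with 4.13 and 3.85 in group 1 against 2.67 and 2.89 in group 2. Another of its 8 probes was called higher (1.30, limma adjusted p = 0.0338), and 1 was called lower (-1.21, limma adjusted p = 0.0359). Its direction is therefore not settled by the array, and with probes averaged it was not called (0.31, limma adjusted p = 0.311). These were the 2 called of 15 single-chain ligases. When either group 1 array was left out, which left 1 array against 2, no gene of the whole series passed. Those fits therefore cannot decide about these 4 genes.

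**Figure D5:**
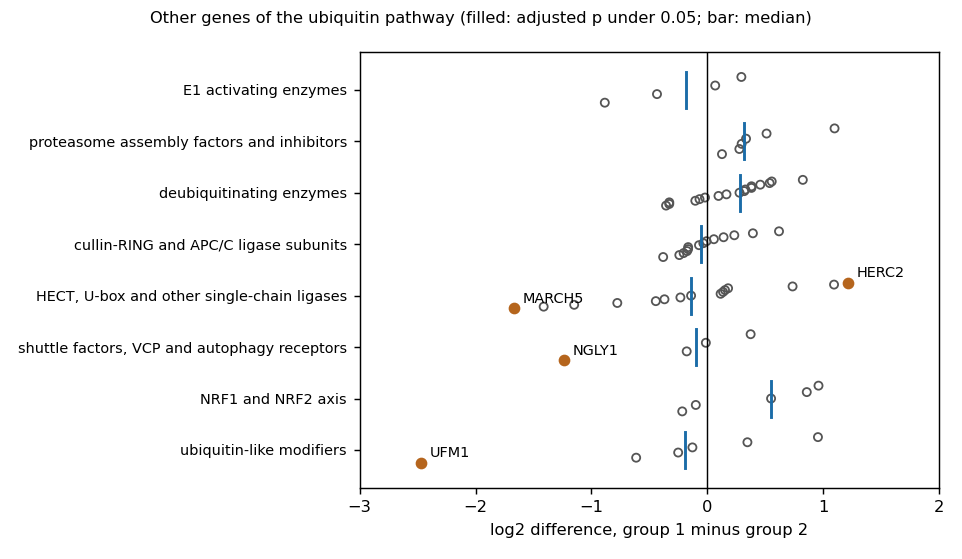
Log2 difference, group 1 minus group 2 (horizontal axis), of each measured gene in 8 of the 9 lists of the ubiquitin pathway (rows); filled points passed the limma test, open points did not, and bars are list medians. UFM1, MARCH5 and NGLY1 lie left of 0 and HERC2 right of it.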

How the data were processed

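Liver RNA of 2 groups was measured on 4 arrays, with 200 ng of RNA labelled with Cy3, per the labels' protocols. The deposited scanner files hold one intensity per spot from Agilent Feature Extraction 11.5.1.1, background-subtracted, per the file headers. The deposited series table holds the authors' log2 values. Set against the scanner values they matched the scaling used here with each probe's median over arrays taken off (Pearson r across probes 1.00), and served as an alternative.

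The log2 of each processed intensity was taken relative to the array's own 75th percentile (978, 1450, 1170 and 1278 units). The 8 to 25 outlier spots per array were set to missing and no spot was saturated. Probes well above background on both arrays of a group were kept (33869 of 43603, with 72.3% to 80.2% of spots well above background per array). Names came from RefSeq accessions matched to the GRCg7b table (11935 probes, 27.4%). The array was designed on galGal3, so no coordinates are given. limma 3.58.1 in R 4.3.3 compared the groups (2 residual and 2.60 prior degrees of freedom) and was tested on simulated data. With 4 arrays, their number sets the precision.

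Members and lists were chosen with earlier results of these data known. Values per array are given for the gene of smallest adjusted p per class, the 3 largest differences each way, the widest gaps between group 2 arrays and called pathway genes, and others by range. Genes outside this rule, such as PSMB5, PSMB7, UBE2G1, UBE2N and UBE2V1, were chosen after their values were seen. The files used have no mean spot signal, so the normexp alternative used median signals. A result for 1 list of ubiquitin pathway genes is not reported here.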

Additional observations from a re-analysis of the deposited data

How the results depend on the processing

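Of 15 alternatives, 7 left every member on its side of 0 and of the threshold: the authors' table, outlier spots kept, no filter, the replicate block, p-values adjusted over genes, leaving out group 1 replicate 1, and leaving out Z and W probes (41 members). The background correction with median signals (normexp, then quantile), chosen after seeing the data because the mean signals planned for it were not used here, called 1 member higher (PSME4) and 1 lower (UBE2V2). Quantile normalization, median scaling and the filter on all 4 arrays each called 1 lower, UBE2V2. Over all genes 280 were called higher and 191 lower. The count lower was 345 with normexp, 302 with median scaling and 111 with the replicate block, and without a filter 102 were higher and 54 lower. The replicate numbers do not pair the arrays (correlation of deviations 0.033), and the replicate block called 0 members (limma; at an unadjusted p under 0.05, 2 higher and 1 lower) and 189 genes higher. Leaving out 1 array gave 0 to 2 members higher, 0 to 1 lower, 0 to 721 genes higher and 0 to 429 lower. The counts of 0 over all genes came from leaving out either group 1 array, where limma gave 336 and 434 genes higher and 222 and 281 lower with an unadjusted p under 0.05. Whichever array is left out, the lone array of its group is assumed to vary like the other group. Under median scaling the median differences were -0.73 for PSMB, -0.22 for PSMC, 0.12 for PSMD, 0.52 for PSME and -0.35 for UBE2. With all kept probes averaged they were -0.21 for PSMC, 0.15 for PSMD, 0.39 for PSME and -0.23 for UBE2. Leaving out 1 array gave a median log2 difference, PSMC, of -0.074 to 0.17, of 0.14 to 0.36 for PSMD and of -0.19 to 0.063 for UBE2.

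Signs turned for PSMC1 (0.0030) and PSMD5 (-0.0096) with normexp. They turned with median scaling for PSMA7 (-0.017), PSMD10 (-0.060), PSMD5 (-0.15), UBE2A (-0.16) and UBE2F (-0.14). With probes averaged they turned for PSMD3 (-0.075), PSME3 (-0.082), UBE2G1 (-0.022), UBE2G2 (-0.23), UBE2N (0.12) and UBE2V1 (-0.090). Leaving out 1 array gave both signs for 11 members and NFE2L2. The ranges were -0.33 to 0.086 for PSMA6, -0.43 to 0.098 for PSMB5, -0.18 to 0.17 for PSMC1, -0.082 to 0.029 for PSMC3 and -0.31 to 0.032 for PSMD14. They were -0.39 to 0.071 for UBE2D1, -0.097 to 0.24 for UBE2F, -0.46 to 0.14 for UBE2K, -0.35 to 0.076 for UBE2L3, -0.70 to 0.17 for UBE2R2, -0.52 to 0.26 for UBE2W and -0.27 to 0.068 for NFE2L2. None of the members or NFE2L2 named with a turned sign was called in that setting. HERC2 and NGLY1 lost their call without a filter (limma adjusted p = 0.0708 and 0.0609), with the replicate block (0.0722 and 0.0623) and with probes averaged (0.311 and 0.15), and HERC2 also under median scaling (0.0576). The cause was not tested. The normexp version planned on mean signals was not run. Signal over background limited no member.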
